A study of Mus musculus with 6 samples.

Results

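Cornified envelope genes encode the proteins from which keratinocytes build the tough shell of the outer skin. They were measured here in sorted thymic medullary epithelial cells of mice with and without Aire. The genes were chosen by symbol: a probe set annotated to exactly 1 gene, the symbol starting with Sprr or Lce or being Ivl, Lor, Flg, Flg2, Rptn, Hrnr, Crct1, Tchh or Tchhl1. This rule found 40 genes among 19938 with such a probe set, and each of the 40 had a single one. They were 13 Sprr genes, 19 Lce genes, 5 genes of the S100-fused type (Flg2, Hrnr, Rptn, Tchh and Tchhl1), and Ivl, Lor and Crct1. For Flg no value was used, since no probe set here carries its symbol alone. The rule reads names alone, and it was set with earlier results of these data known.

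The arrays compared 3 mice labelled Aire KO (Aire-/-) with 3 labelled Aire WT, all on the (B6xNOD)F1 background and aged 4 to 6 weeks. Each mouse was taken individually and gave 1 array. Cells were sorted from digested thymus as lacking CD45, with intermediate Ly51 and high MHC class II, and their RNA was amplified in 2 rounds. The sort keeps medullary cells of the MHC class II high stage, so cells with little MHC class II, among them the most keratinocyte-like ones, were not sampled as a separate group. The labels give neither the deleted part of Aire nor a batch.

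As background, keratinocytes entering their last stage of differentiation load involucrin, loricrin and small proline-rich (Sprr) proteins beneath the plasma membrane, and transglutaminases cross-link them into an insoluble envelope. Late cornified envelope (Lce) proteins are added in the outermost layers. The S100-fused proteins, such as filaggrin-2, hornerin, repetin and trichohyalin, bind keratin filaments or reinforce the envelope. All these genes lie close together, with some other genes between them, in the epidermal differentiation complex, which is on mouse chromosome 3. In the thymus, part of the medullary epithelium takes on keratinocyte features after the Aire-expressing stage, and in humans such cells form Hassall's corpuscles.

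Aire's own signal was 12.38, 12.41 and 12.42 on the KO arrays, against 12.00, 11.92 and 11.99 on the WT arrays (log2 intensity). Without knowing which part of the gene was deleted, this signal is no check of the genotype labels. Array medians lay between 92.9 and 98.2 on the linear scale. The markers of the sorted cells were present on all 6 arrays: H2-Aa lay at 13.69, 13.57 and 13.64 on the KO arrays, against 13.42, 13.43 and 13.43 on the WT arrays. Values below are log2 intensities, and a difference is the KO mean minus the WT mean. A gene was tested if at least 3 arrays exceeded 5.97, which is the 40th percentile over the whole table. A gene was called at a limma adjusted p under 0.05, adjusted with the Benjamini-Hochberg method over all 13925 tested genes. The other 24 of the 40 genes were dim and are described from a second fit with no filter, adjusted over all 19938 genes.

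Cornified envelope genes were mostly lower in KO cells where a difference was called. With no filter, 20 of the 40 fell, 1 rose and 19 were not called, beside 11.0% of all genes that fell and 8.93% that rose in the same fit. Their median difference was -0.32, and that of all 19938 genes was 0.04. Among the 16 that passed the filter, 13 fell, 0 rose and 3 were not called, beside 14.1% of tested genes that fell and 12.0% that rose. Of the 13, Lce1c exceeded the filter on no KO array and on all WT arrays, so it entered the tested genes only through the group in which it was higher. In 13 of the 16 every KO array lay below every WT array, beside 20.5% of tested genes. These are the same 13 that were called, so their separation adds no further support. In 20 of the 40 every KO array lay below every WT array, beside 17.4% of all genes, and in 1 every KO array lay above, beside 21.0%. In bulk RNA, fewer cells that express a gene and less of its RNA per cell cannot be told apart.

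**Figure D1:**
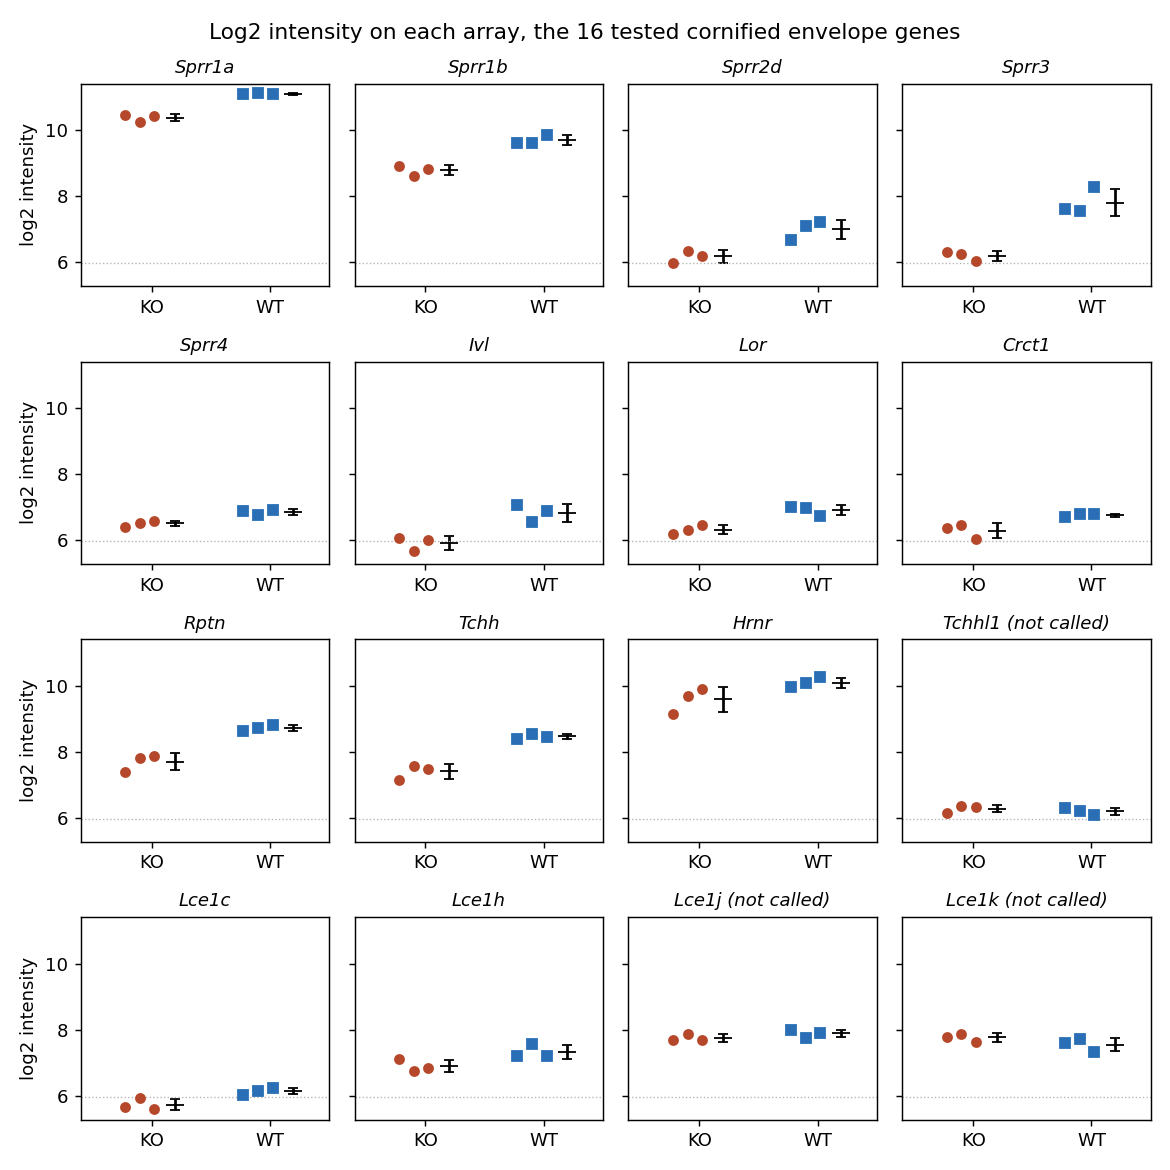
Log2 intensity (vertical axis) of the 16 tested genes on each of the 3 KO arrays (circles, left) and 3 WT arrays (squares, right), with the mean and SD beside the points and the intensity filter of 5.97 as a dotted line. In 13 panels every KO point lies under every WT point, and in Lce1j, Lce1k and Tchhl1 the groups overlap.

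The size of the falls was moderate. By 2-fold or more, 3 of the 16 tested genes fell, Sprr3, Tchh and Rptn, beside 2.11% of all tested genes. When the fit asked for a change of more than 0.5 on the log2 scale (limma's treat), 4 of the 13 calls were kept: Sprr3, Sprr1b, Tchh and Rptn. The share of all tested genes called by treat was not counted. All 13 SDs of these genes lay between 0.09 and 0.38 among the KO mice and between 0.03 and 0.40 among the WT mice.

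**Figure D2:**
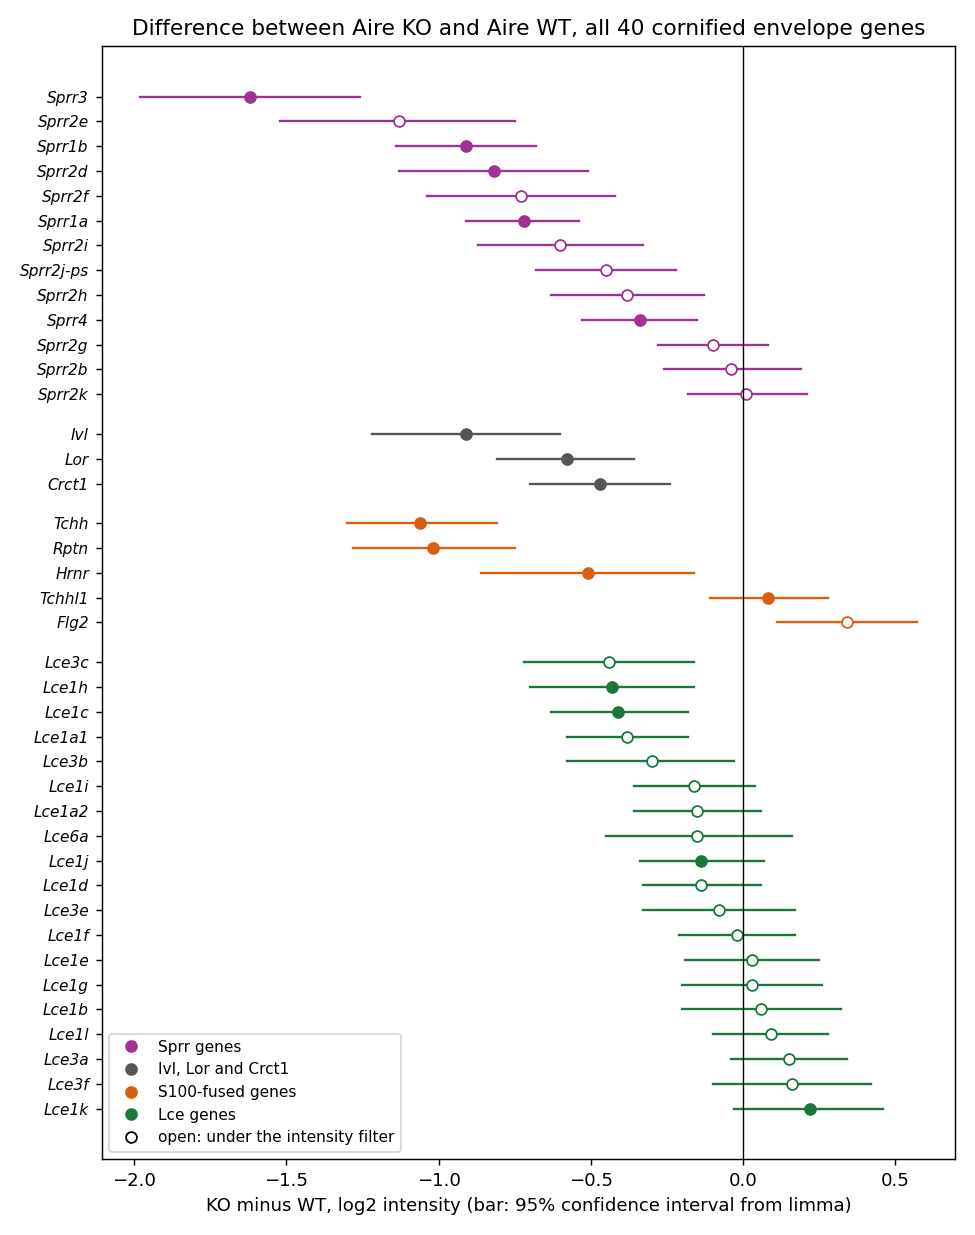
KO minus WT difference in log2 intensity (horizontal axis) of all 40 genes with its 95% confidence interval, not adjusted for the number of genes, by family. Filled points passed the intensity filter and open ones did not. The Sprr differences run from -1.62 to 0.01, and those of the Lce genes from -0.43 to 0.22 for filled and from -0.44 to 0.16 for open points.

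The Sprr family held the largest single fall, that of Sprr3. Of its 13 genes, 10 fell with no filter, 0 rose and 3 were not called, with a median difference of -0.60, beside 11.0% of all genes that fell in that fit. All 5 that passed the filter fell. Sprr proteins are short cross-bridging substrates of transglutaminases, and Sprr1a, Sprr1b and Sprr3 are also known from internal stratified epithelia and from stressed skin.

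Sprr3, a protein of oral and oesophageal epithelium, lay at 6.30, 6.24 and 6.02 on the KO arrays, against 7.60, 7.54 and 8.26 on the WT arrays. The groups were 1.24 apart at their nearest arrays, and the WT spread came from 1 high mouse, replicate 3. Its difference was -1.62 (SE 0.16, limma adjusted p = 3.0e-05), a 3.07-fold lower signal in KO cells.

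Sprr1b, an early substrate of cross-linking, lay at 8.92, 8.61 and 8.82 in KO mice, against 9.62, 9.62 and 9.86 in WT mice. The groups did not overlap, and the difference was -0.91 (SE 0.10, limma adjusted p = 7.7e-05), so the KO signal was 53.1% of the WT signal. Sprr1a, its closest relative, lay at 10.46, 10.26 and 10.42 in KO mice, against 11.08, 11.13 and 11.10 in WT mice. These WT arrays were the tightest of any cornified envelope gene that fell (SD 0.03), and the difference was -0.72 (SE 0.08, limma adjusted p = 8.9e-05).

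The difference was smallest for Sprr4, which is induced in skin by ultraviolet light, among the tested Sprr genes. It lay at 6.40, 6.52 and 6.57 in KO mice, against 6.88, 6.74 and 6.89 in WT mice, a difference of -0.34 (SE 0.09, limma adjusted p = 0.014). Its call was lost without KO replicate 1 (difference -0.29, adjusted p = 0.069).

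The Sprr2 genes are a tandem array of close copies. Sprr2d was the only one of 9 with its own probe set above the filter, at 5.97, 6.34 and 6.19 in KO mice, against 6.66, 7.09 and 7.21 in WT mice, a difference of -0.82 (SE 0.14, limma adjusted p = 0.0014). With no filter, Sprr2e (-1.13), Sprr2f (-0.73), Sprr2i (-0.60), the pseudogene Sprr2j-ps (-0.45) and Sprr2h (-0.38) fell too, with groups that did not overlap. Sprr2h lost its call without any 1 of KO replicates 1 to 3 or WT replicates 1 and 2 (adjusted p between 0.068 and 0.12), and with an offset of 32 (0.084). Sprr2g (-0.10), Sprr2b (-0.04) and Sprr2k (0.01) were not called, and their intervals ran from -0.28 to 0.08, from -0.26 to 0.19 and from -0.18 to 0.21. All KO values of these dim genes lay under the filter, where background compresses a difference, and how far their probes read neighbouring copies was not tested.

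Another 3 probe sets are annotated to several Sprr2 symbols each, and 2 of these hold identical values. The first lay at 9.46, 9.49 and 9.44 in KO mice, against 10.03, 10.22 and 10.18 in WT mice. Its difference was -0.68 (SE 0.08, limma adjusted p = 0.0016 in a fit of all probe sets separately). The identical pair lay at 8.41, 8.41 and 8.35 in KO mice, against 8.93, 8.92 and 9.03 in WT mice, a difference of -0.57 (SE 0.07, limma adjusted p = 0.0024 in that fit). Which of the copies carried these signals cannot be read from them, and they are not counted among the 40 genes.

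The starts of the Sprr genes are shown because 10 of the 13 genes fell, and a gene that was not called is set beside them. Each sequence is the 200 bases before the RefSeq transcript start (GRCm38.p6), written 5′ to 3′ on the gene's strand. Capitals mark matches to a TATA box (TATAAA), an AP-1 motif (TGANTCA, where N is any base) and an octamer motif (ATTTGCAT). Both strands were searched with overlaps allowed. The AP-1 matches thus include TGAATCA and TGATTCA as well as TGAGTCA and TGACTCA. Sprr1a is at chr3:92485882-92486081, minus strand, and Sprr1b at chr3:92438780-92438979, minus strand. Sprr3 is at chr3:92458721-92458920, minus strand. From the tandem array, Sprr2d, which fell, is at chr3:92338940-92339139, plus strand, and Sprr2b, which was not called, at chr3:92316505-92316704, plus strand.
Sprr1a: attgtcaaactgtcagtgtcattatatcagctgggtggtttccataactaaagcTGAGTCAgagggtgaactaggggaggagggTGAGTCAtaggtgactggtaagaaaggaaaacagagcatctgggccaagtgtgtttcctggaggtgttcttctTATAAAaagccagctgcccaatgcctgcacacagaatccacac
Sprr1b: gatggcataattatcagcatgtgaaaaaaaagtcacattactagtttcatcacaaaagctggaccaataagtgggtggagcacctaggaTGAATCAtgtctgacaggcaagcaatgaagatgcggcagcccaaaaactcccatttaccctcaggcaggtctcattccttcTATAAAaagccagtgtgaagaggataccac
Sprr3: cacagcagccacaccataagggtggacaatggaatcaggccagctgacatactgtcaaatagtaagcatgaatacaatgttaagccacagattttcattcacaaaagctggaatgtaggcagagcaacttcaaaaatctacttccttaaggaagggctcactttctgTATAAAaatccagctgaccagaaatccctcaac
Sprr2d: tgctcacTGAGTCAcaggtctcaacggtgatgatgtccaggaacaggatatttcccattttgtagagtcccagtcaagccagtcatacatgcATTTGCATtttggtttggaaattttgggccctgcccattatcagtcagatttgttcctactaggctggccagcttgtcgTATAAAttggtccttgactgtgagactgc
Sprr2b: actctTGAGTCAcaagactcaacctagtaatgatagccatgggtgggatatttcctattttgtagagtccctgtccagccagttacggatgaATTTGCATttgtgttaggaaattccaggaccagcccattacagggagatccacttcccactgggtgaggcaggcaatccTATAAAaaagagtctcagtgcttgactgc

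All 7 Sprr2 genes with a promoter in the table held the 3 motifs in the same order, whether they fell or not. Their TATA box began 29 bases before the start in each, with the octamer 108 to 112 bases and an AP-1 motif 193 to 198 bases before it. Between pairs of these 7, 65.5% to 92.0% of the 200 bases were identical after alignment, with Sprr2d and Sprr2e the closest pair. Sprr2b and Sprr2k, at -0.04 and 0.01, held the same motifs as Sprr2d and Sprr2e, at -0.82 and -1.13. Sprr3, with the largest difference, held a TATA box and neither of the other 2 motifs in these 250 bases.

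Involucrin and loricrin, the first-laid scaffold and the most abundant protein of the skin envelope, were both lower in KO cells. Ivl lay at 6.06, 5.65 and 6.00 in KO mice, against 7.05, 6.53 and 6.86 in WT mice. Its difference was -0.91 (SE 0.14, limma adjusted p = 0.00068), and 1 of the 3 KO arrays lay under the filter. Lor lay at 6.19, 6.30 and 6.45 in KO mice, against 7.00, 6.96 and 6.73 in WT mice, a difference of -0.58 (SE 0.10, limma adjusted p = 0.0015).

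Crct1, a cysteine-rich protein gene at the edge of the Lce cluster, lay at 6.37, 6.44 and 6.03 in KO mice, against 6.70, 6.77 and 6.78 in WT mice. The difference was -0.47 (SE 0.11, limma adjusted p = 0.0076), and the lowest KO value was that of replicate 3. The groups of Ivl, Lor and Crct1 did not overlap.

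Ivl (chr3:92573736-92573935, minus strand) and Lor (chr3:92083143-92083342, minus strand) each held 1 AP-1 motif and 1 TATA box before the start, shown here in capitals for comparison with the Sprr genes.
Ivl: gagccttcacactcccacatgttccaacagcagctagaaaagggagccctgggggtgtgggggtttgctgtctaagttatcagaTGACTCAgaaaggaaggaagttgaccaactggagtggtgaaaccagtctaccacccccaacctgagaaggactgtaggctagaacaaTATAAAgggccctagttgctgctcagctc
Lor: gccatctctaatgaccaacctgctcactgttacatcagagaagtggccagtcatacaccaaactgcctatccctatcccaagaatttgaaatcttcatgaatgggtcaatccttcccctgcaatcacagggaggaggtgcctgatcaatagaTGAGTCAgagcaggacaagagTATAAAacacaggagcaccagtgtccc

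The S100-fused genes found by the rule split. Rptn, Tchh and Hrnr fell, Tchhl1 was not called, and Flg2, which lay under the filter on all 6 arrays, was called higher with no filter. Trichohyalin (Tchh) is best known from the hair follicle's inner root sheath and the tongue, where it hardens keratin filaments. It lay at 7.14, 7.58 and 7.49 in KO mice, against 8.40, 8.53 and 8.46 in WT mice, a difference of -1.06 (SE 0.11, limma adjusted p = 4.1e-05). Repetin (Rptn), a related calcium-binding envelope protein, lay at 7.40, 7.82 and 7.88 in KO mice, against 8.64, 8.71 and 8.81 in WT mice, a difference of -1.02 (SE 0.12, limma adjusted p = 0.0001). For both genes the gap between the groups, 0.82 and 0.75, was wider than the range within either group.

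Hornerin (Hrnr), a filaggrin-like protein, lay at 9.16, 9.70 and 9.90 in KO mice, against 9.95, 10.08 and 10.26 in WT mice. The nearest arrays were only 0.04 apart, and the difference was -0.51 (SE 0.16, limma adjusted p = 0.038). Without KO replicate 1 it was -0.30 (adjusted p = 0.12). The call was also lost without KO replicate 2 (adjusted p = 0.062), WT replicate 2 (0.062) or WT replicate 3 (0.12), with array weights (0.059) and in the fit of all probe sets separately (0.11).

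Among the KO mice, replicate 1 was the lowest for all 3 of Tchh, Rptn and Hrnr, and among the WT mice replicate 1 was lowest for all 3 as well. Over the 5 tested Sprr genes, KO replicate 1 was the highest KO array in 3 and the lowest in 2. Over all 13 genes that fell, KO replicate 1 was lowest in 6 and highest in 5.

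Tchhl1, a relative of trichohyalin, lay at 6.15, 6.35 and 6.33 in KO mice, against 6.28, 6.21 and 6.09 in WT mice. These groups overlapped, and its difference of 0.08 (95% confidence interval -0.11 to 0.28) was not called, though it lies beside Tchh. Filaggrin-2 (Flg2) lay at 5.07, 4.98 and 5.21 in KO mice, against 4.70, 4.60 and 4.94 in WT mice, a difference of 0.34 (SE 0.11, limma adjusted p = 0.042 with no filter). The call of Flg2 was lost without KO replicate 1 (adjusted p = 0.095), KO replicate 3 (0.15), WT replicate 1 (0.10) or WT replicate 2 (0.13), with an offset of 32 (0.10) and after another quantile normalization (0.065).

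The start of Rptn (chr3:93393499-93393698, plus strand) is shown as that of a gene outside the Sprr array with a fall of the same order. It held 1 match to the AP-1 motif, of the form TGATTCA, and 1 TATA box. Other genes that fell did not hold this pair. Tchh (-1.06) and Sprr4 (-0.34) held no match to TATAAA, the AP-1 motif or the octamer, and Hrnr (-0.51) held TATAAA alone. An AP-1 motif was also found in Flg2 (0.34), which was called higher with no filter, and in Tchhl1 (0.08), which was not called.
Rptn: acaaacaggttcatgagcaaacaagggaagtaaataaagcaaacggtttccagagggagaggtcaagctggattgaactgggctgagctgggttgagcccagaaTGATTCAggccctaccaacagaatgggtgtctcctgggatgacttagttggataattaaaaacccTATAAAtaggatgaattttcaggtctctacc

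Lce genes were mostly dim in these cells. Of 19, 4 fell with no filter, 0 rose and 15 were not called, with a median of -0.14, beside 11.0% of all genes that fell in that fit and 8.93% that rose. Their differences ran from -0.44 to 0.22, and 15 of the 19 lay under the filter rule; a difference between the Lce and Sprr families was not tested. Lce proteins are glycine- and cysteine-rich and belong to the outermost skin layers.

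Lce1h lay at 7.10, 6.74 and 6.84 in KO mice, against 7.20, 7.56 and 7.20 in WT mice, a difference of -0.43 (SE 0.12, limma adjusted p = 0.025). It lost its call without KO replicate 2 (adjusted p = 0.092), KO replicate 3 (0.083) or WT replicate 2 (0.08), and in the fit of all probe sets separately (0.072). Lce1c lay at 5.65, 5.93 and 5.60 in KO mice, all under the filter, against 6.03, 6.14 and 6.23 in WT mice, a difference of -0.41 (SE 0.10, limma adjusted p = 0.014). It lost its call without KO replicate 1 (adjusted p = 0.059) or KO replicate 3 (0.065). The groups of both genes were 0.10 apart at their nearest arrays.

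Among the dim Lce genes, Lce3c (-0.44) and Lce1a1 (-0.38) fell with no filter (limma adjusted p = 0.03 and 0.012). Lce3c lost its call without KO replicate 1 (adjusted p = 0.12), KO replicate 3 (0.073) or WT replicate 2 (0.10), and with an offset of 32 (0.067). Lce1a1 lost it without KO replicate 3 (0.061) or WT replicate 1 (0.051).

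Lce1j and Lce1k passed the filter on all arrays and were not called. Lce1j lay at 7.69, 7.87 and 7.68 in KO mice, against 8.00, 7.76 and 7.89 in WT mice, a difference of -0.14 (95% confidence interval -0.34 to 0.07). Lce1k lay at 7.78, 7.88 and 7.63 in KO mice, against 7.60, 7.72 and 7.32 in WT mice, a difference of 0.22 (95% confidence interval -0.03 to 0.46). The other 13 Lce genes, all dim and not called, lay between -0.30 (Lce3b) and 0.16 (Lce3f). A probe set annotated to 6 Lce3 symbols lay at 7.88, 7.97 and 7.82 in KO mice, against 8.01, 7.96 and 7.93 in WT mice, and was not called (difference -0.08, 95% confidence interval -0.25 to 0.10).

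The promoter motifs were counted over the 36 of the 40 genes with an entry, against all 32851 entries of the table, in the 250 bases before the start. A TATA box was found in 17 of the 36 genes and in 12.4% of all entries. AP-1 motifs were found in 14 of 36 and in 6.75% of all entries, and the octamer in 7 of 36 and in 1.6%. By family, the string TATAAA was found in 10 of 11 Sprr and 3 of 18 Lce genes, and an AP-1 motif in 9 of 11 Sprr and 0 of 18 Lce genes. The Lce matches to TATAAA began 30 bases before the start in Lce1d, 218 in Lce6a and 243 in Lce3e. Variants of the TATA box were not searched, so a gene without TATAAA may still hold one. Among the 18 entries of genes that fell with no filter, 10 held an AP-1 motif, against 4 of the other 18. These counts follow the families, whose members share sequence by descent, so they are descriptions and not tests. Of the 5 further motifs searched, an ETS core (AGGAAG) was found in 18 of 36 genes against 29.5% of all entries and CCACCC in 8 of 36 against 28.1%. TATATA, which can overlap a TATA box, was found in 3 against 5.25%, GGGCGG in 1 against 32.7%, and the cyclic AMP element TGACGTCA in 0 against 1.55%.

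**Figure D3:**
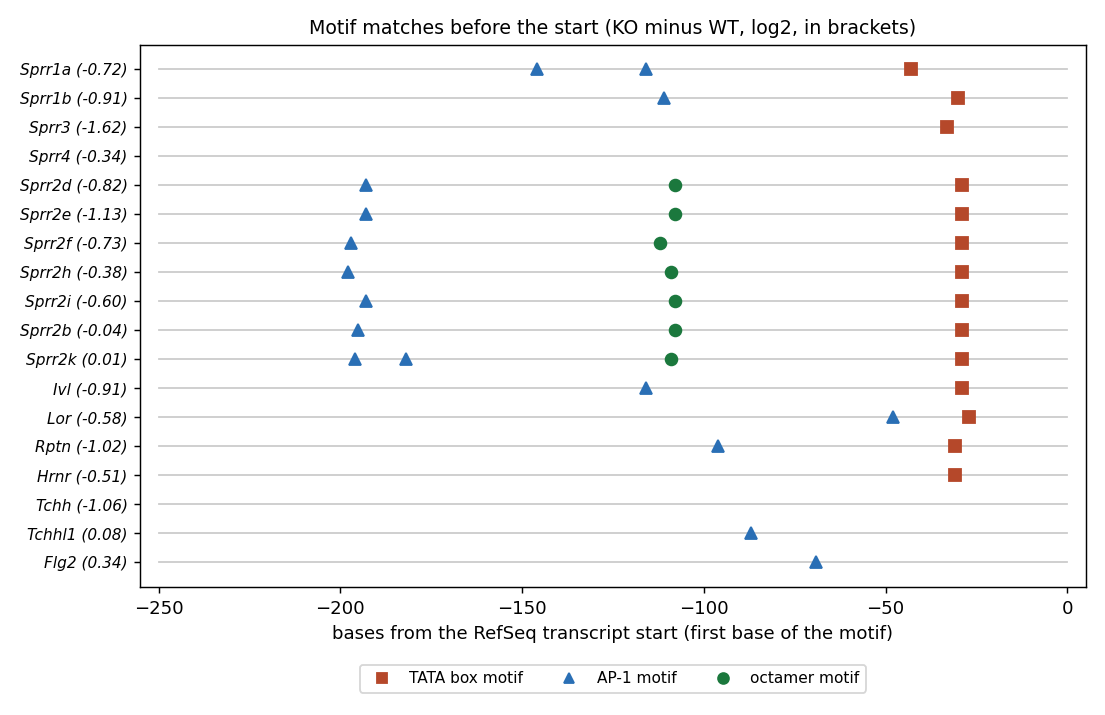
Positions of TATA box (squares), AP-1 (triangles) and octamer (circles) motifs in the 250 bases before the transcript start (horizontal axis, bases from the start) of 18 genes, each with its KO minus WT difference in brackets. The 7 Sprr2 genes hold the motifs at nearly the same distances although their differences run from -1.13 to 0.01.

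The 40 genes were then set in their chromosomal order with the other measured genes between S100a1 and S100a10, 62 genes in all. Lor, the Sprr genes and Ivl lay toward one end of the members' stretch and Hrnr, Rptn and Tchh toward the other, with the Lce genes between them. Genes that were not called, Lelp1, Sprr2b, Sprr2g and Sprr2k, lay among the falls of the first end. Of the 14 S100 genes that flank the members, 4 fell and 8 rose: S100a9 (-2.71) and S100a8 (-1.94), the subunits of calprotectin, fell most, and S100a1 (0.77) rose most. From S100a1 to S100a6, 8 of 9 genes rose and 0 fell, whereas from S100a7a to S100a10, a boundary chosen after the values were seen, 27 of 53 fell and 1 rose with no filter, beside 11.0% and 8.93% of all genes. Of the 8 other genes in the stretch, Pglyrp4, a peptidoglycan recognition protein gene, fell by 0.67 on the log2 scale, and with no filter Prr9 (-0.60) and Tdpoz8 (-0.85) fell too.

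**Figure D4:**
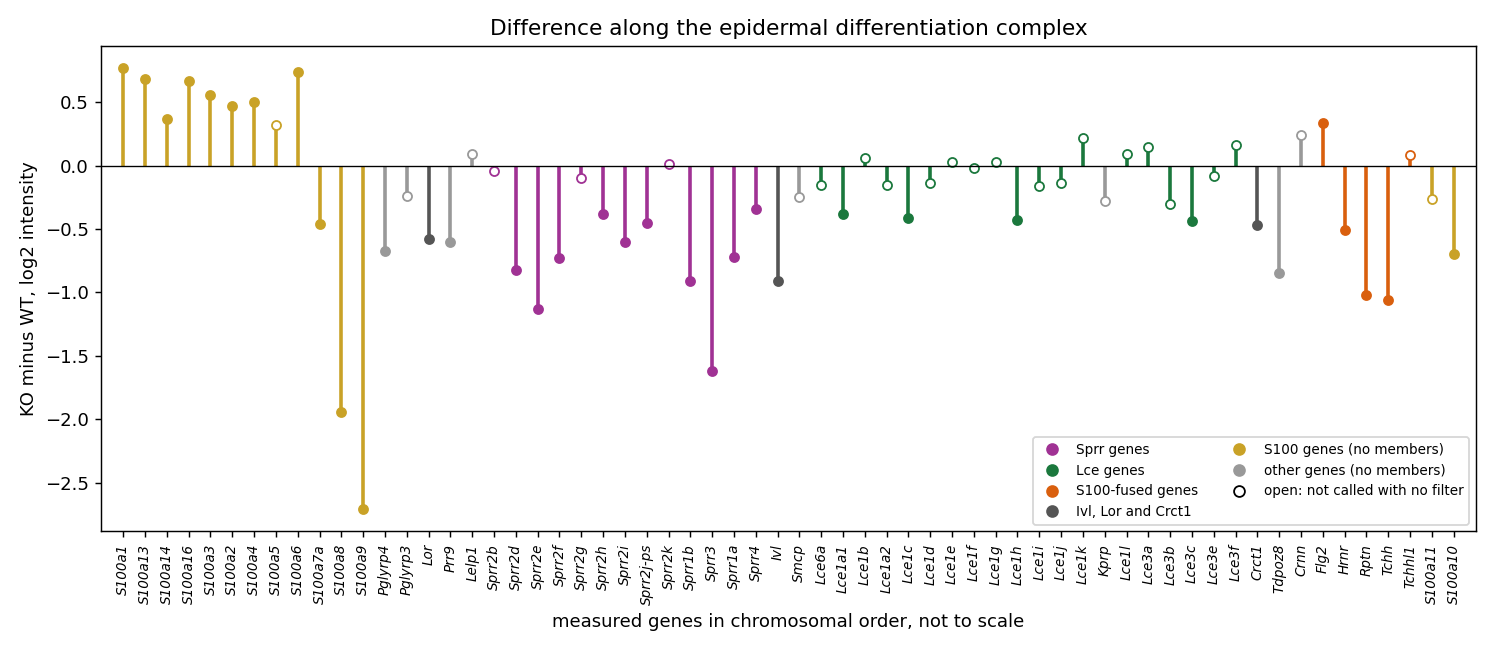
KO minus WT difference in log2 intensity (vertical axis) of the 62 measured genes from S100a1 to S100a10 in chromosomal order (horizontal axis, not to scale), coloured by family, with open points for genes not called with no filter. S100a9 has the lowest value at -2.71, and 8 of the first 9 genes, all S100 genes, lie above 0 as called.

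Genes that work with the envelope proteins were described from lists, whose counts stand beside 14.1% of all tested genes that fell and 12.0% that rose. Where a gene exceeded the filter on no KO array and on all WT arrays, it entered the tested genes only through the group in which it was higher, and the count with no filter is given too. The transglutaminases that cross-link the envelope were not called: Tgm1 (-0.16, 95% confidence interval -0.36 to 0.04), Tgm3 (-0.07, -0.46 to 0.31) and Tgm5 (0.05, -0.16 to 0.26). Of 14 tested processing enzymes and inhibitors, 7 fell and 0 rose, with a median of -0.35. Those with the lowest p were kallikrein proteases that shed skin cells: Klk5 (-2.25), Klk7 (-1.54), Klk6 (-0.91) and Klk14 (-1.29). Klk5 was tested through its WT arrays alone, and with no filter 8 of 16 genes of the list fell and 0 rose. Suprabasal and mucosal keratins, whose filaments the envelope encloses, fell in 9 of 12 tested and rose in 0, with a median of -0.82, and Krt13 (-1.68), Krt1 (-2.67), Krt77 (-1.92) and Krt10 (-1.86) led by p. Krt13 and Krt4 were tested through their WT arrays alone, and with no filter 8 of 13 fell and 0 rose, with a median of -0.55.

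Genes of the lipid envelope that coats the protein envelope fell in 5 of 12 tested and rose in 0, with a median of -0.22. Alox12b, a lipoxygenase needed to attach the lipids, led by p (-1.44), followed by the ceramide synthase gene Cers3 (-0.97), Sdr9c7 (-0.54) and the fatty acid elongase gene Elovl4 (-0.42). Cers3 was tested through its WT arrays alone, and with no filter 4 of 13 fell and 0 rose. Of 13 tested genes of desmosomes, tight junctions and plakins, 4 fell and 1 rose, with a median of -0.25. Dsc2 (-0.63), desmoplakin (Dsp, -0.67), Dsg3 (-0.69) and Cldn1 (-0.39) fell, and Dsg1b (0.34) rose. Dsg3 was tested through its WT arrays alone, and with no filter 4 of 14 fell and 0 rose, since Dsg1b was not called (limma adjusted p = 0.054). Leaving out KO replicate 1 ended the call of Cldn1 (limma adjusted p = 0.071). Of the 6 fits on 5 arrays, the one without KO replicate 1 kept the call of Dsg1b, and without KO replicate 2 its difference was 0.21 (limma adjusted p = 0.14).

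Other late differentiation genes moved both ways: 8 of 17 tested fell and 3 rose, with a median of -0.03. Krtdap (-0.98) and Serpinb12 (-0.49) fell, and the serpin gene Serpinb2 (0.72) and S100a16 (0.67) rose. Of 23 tested regulators of keratinocyte differentiation, 6 fell and 1 rose, with a median of -0.12. Klf5 (-0.73), the Notch target Hes1 (-0.46) and the AP-1 subunit genes Fosl1 (-0.44) and Fosl2 (-0.35) fell, and Grhl3, an activator of barrier genes, rose by 0.32. Without KO replicate 1, 3 fell and 0 rose. Grhl3 was not called without WT replicate 1 either (limma adjusted p = 0.056), nor Fosl2 without WT replicate 2 (0.052). Across all 13925 tested genes the median difference was 0.02.

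**Figure D5:**
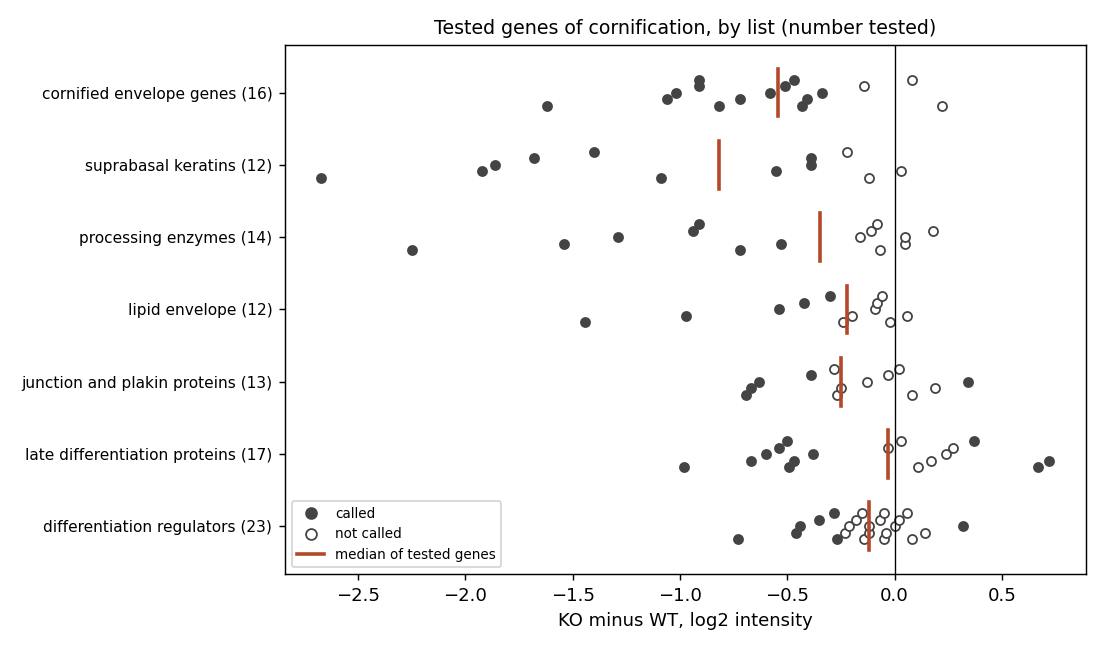
KO minus WT difference in log2 intensity (horizontal axis) of the tested cornified envelope genes and of the tested genes of 6 lists, with filled points for called genes and a line at each list's median. The medians run from -0.82 for the keratins to -0.03 for the late differentiation proteins.

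Markers of basal keratinocytes and of other cells were counted beside these genes, against the same shares of all tested genes, 14.1% that fell and 12.0% that rose. Basal epithelial markers, which medullary cells share, fell in 4 of 10 and rose in 0: Krt15 (-0.67), Krt5 (-0.84), Krt14 (-0.44) and Lamb3 (-0.33). Their summed intensity was 5749 to 6291 on KO arrays, against 7093 to 7434 on WT arrays, while Itgb4 (-0.06), Col17a1 (0.24) and Trp63 (0.14) were not called. Without KO replicate 1, 2 of the 4 fell, since Krt14 and Lamb3 lost their calls. Krt14 was not called without KO replicate 2 either (limma adjusted p = 0.052), nor Lamb3 without KO replicate 3 (0.12), WT replicate 1 (0.13) or WT replicate 2 (0.11). Medullary markers fell in 3 of 14 tested, Krt5, Krt14 and Epcam (-0.37), and rose in 0, with sums of 62389 to 65703 on KO arrays, against 60970 to 62246 on WT arrays. Without KO replicate 1, Epcam and Krt14 were not called, which left 1, and Epcam was not called without KO replicate 3 (limma adjusted p = 0.06) or WT replicate 3 (0.057). The count of medullary markers that rose was 3 with an offset of 32 or with trended, robust variances, 2 with array weights, and 1 with the 60th percentile filter or the mean of probe sets.

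Thymocyte markers fell in 2 of 8 tested, Cd3g (-1.40) and Ptprc (-0.62), and their summed intensity was 769 to 1053 on KO arrays, against 1069 to 1804 on WT arrays. Cd3e (-0.01), Cd4 (-0.22), Cd8a (-0.40), Cd8b1 (-0.26), Rag1 (-0.50) and Ptcra (0.04) were tested and not called. Ptprc was not called without KO replicate 3 (limma adjusted p = 0.092) or WT replicate 3 (0.064), and Cd3g was not called with trended, robust variances (0.10). Cortical epithelial markers rose in 3 of 6 tested, Ccl25 (0.49), Kitl (0.54) and Prss16 (0.36), and fell in 0, with sums of 5564 to 6002 on KO arrays, against 4521 to 5166 on WT arrays. Leaving out KO replicate 2 ended the call of Prss16 (limma adjusted p = 0.063). Myeloid and dendritic markers fell in 2 of 8, Itgam (-1.29) and Csf1r (-0.54), and rose in 2, Batf3 (0.64) and Cd68 (0.32). Itgam was tested through its WT arrays alone, and with no filter 2 of 10 markers of this list fell and 1 rose. Cd68 was not called with no filter (limma adjusted p = 0.059) or with centring on the median (0.06). The sums of the myeloid and dendritic markers were 3741 to 3863 on KO arrays, against 3775 to 4163 on WT arrays. B cell markers rose in 3 of 3 tested, Blk (0.47), Pax5 (0.31) and Cd79b (0.24), with sums of 680 to 693 on KO arrays, against 565 to 580 on WT arrays. With no filter 2 rose and 1 fell of the 5 measured: the defining marker Ms4a1 fell (-0.48, limma adjusted p = 0.0052), and Cd79b was not called (0.053), nor was it with the replicate number as a block (0.09). Fibroblast and endothelial markers fell in 1 of 8 (Col1a1, -0.63) and rose in 1 (Dcn, 0.75), with sums of 2019 to 2517 on KO arrays, against 1812 to 2084 on WT arrays.

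In the fits on 5 arrays, Cd68 and Cd79b kept their calls only without WT replicate 3, and Pax5 only without KO replicate 3 or WT replicate 2. Without WT replicate 2, 2 of the fibroblast and endothelial markers fell. The defining markers Psmb11, Itgax, Ms4a1 and Cd79a lay under the filter on all 6 arrays. The part of these shifts in the values of the cornified envelope genes was not tested.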

How the data were processed

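The authors deposited linear intensities, 1 per probe set and array, made with RMA per the submitters' processing notes. The sources used here give no version, genome build or list of arrays normalized together. RMA brings the probe values of the arrays to 1 distribution, though the array medians of the deposited intensities still lay between 92.9 and 98.2. Background compresses differences of dim genes.

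The deposited intensities were put on the log2 scale (pseudocount 0). Of 35512 probe sets, 21789 have 1 gene symbol, 1621 several and 12102 none in the platform annotation. For each of 19938 genes the 1-symbol probe set with the highest mean over the 6 arrays was kept. Genes above the 40th percentile on at least 3 of 6 arrays entered a two-sided limma fit (version 3.58.1 under R 4.3.3, lmFit then eBayes) whose single factor was the genotype. Adjusted p-values (Benjamini-Hochberg) and confidence intervals come from that fit. The plots were made in matplotlib 3.10.9.

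The genes, lists and alternatives were chosen with earlier results of these data known. Genes given array by array are those named in the rule and the Sprr and Lce genes that were called, or tested and not called. From each other list up to 4 called genes are named by adjusted p, and genes named beyond these were chosen after their values were seen. Promoters are from RefSeq (GRCm38.p6), whose gene table gave the gene order. The files name no build, so no probe set coordinates are given. Same-numbered KO and WT arrays did not deviate together (r = -0.018, -0.209 and -0.056 over tested genes), so no pairing was assumed.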

Additional observations from a re-analysis of the deposited data

How the results depend on the processing

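Differences were recomputed for the cornified envelope genes called with or without the filter, and for Tchhl1, Lce1j and Lce1k. Dim genes that were not called were left out. Among 369 recomputed values under 17 alternatives, no gene called in the main fit or in the alternative changed sign between them. Of these values, 329 kept their side of the threshold and 40 that had been called lost it. The count of tested genes that fell was 13. It was 20 with no filter, with 1 that rose and a median of -0.32. It was 7 with the filter at the 60th percentile (median -0.72), where fewer genes were tested, and 4 with treat, which asks for a larger change. Leaving out each array in turn gave 10 to 13 tested genes that fell, 0 that rose and a median of -0.66 to -0.53. With no filter the same fits gave 15 to 19 that fell, 0 to 1 that rose and a median of all 40 of -0.34 to -0.25. With no filter and an offset of 32, 16 fell, 0 rose and the median of all 40 was -0.18, since an offset shrinks the differences of dim genes. After another quantile normalization with no filter 0 rose, as Flg2 lost its call, and the cause was not tested. With the replicate number as a block, 13 tested genes fell and 0 rose with a median of -0.55, and 20 fell and 1 rose with no filter. The block changed no call of the cornified envelope genes, while with it Cd79b was not called and S100a5 was, and the arrays share only a number. The unfiltered counts under the alternatives, and the test of every probe set on its own, were added after the data had been seen. In that test 11 fell, beside 1961 of all 21688 tested probe sets. Apart from the fit with no filter, whose share is given above, the share of all genes was not counted for the other alternatives. With 3 arrays a group, precision is limited, and the table holds no background measure for a gene's signal.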
